A study of Mus musculus with 6 samples.

Results

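Genes of the integrated stress response and the unfolded protein response, 10 in all, were compared between the muscles of FLExDUX4 and wild-type mice. They were picked by symbol, as the rows that carry a mouse Ensembl gene identifier and the name Atf4, Atf6, Ddit3, Xbp1, Ern1, Eif2ak3, Asns, Trib3, Chac1 or Eif4ebp1. Each symbol had a single row among the 52550 mouse genes listed, and all 10 were among the 13396 genes kept by a filter on low counts. Asns passed that filter through the FLExDUX4 total alone, so its difference was partly fixed by the filter.

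FLExDUX4 mice are hemizygous for a human DUX4 transgene that sits in reverse orientation between lox sites at the Rosa26 locus, and that leaks at a low level without Cre, which these mice did not carry. The controls were WT littermates without the transgene. RNA came from 3 FLExDUX4 and 3 WT males, labelled as quadriceps at 13 weeks of age, and the methods of the study name the triceps and a younger age. It was sequenced with QuantSeq, which reads the 3′ end of polyadenylated RNA, so that a transcript gives about the same number of reads whatever its length and levels of different genes can be set side by side. The values used were the counts summed over the mice of a genotype, 13110125 for FLExDUX4 and 18367364 for WT. Columns of single mice match no sample label and were left out, so there is no replicate check, no test across mice and no SD, and a single mouse can set a ratio. Counts were scaled with TMM, which assumes that most genes do not differ, and are given as CPM, counts set to a common library size. The ratio is the log2 of FLExDUX4 over WT, with 0.5 added to each count. Scaling to the spike-in RNAs instead lowers every log2 ratio, and every median of such ratios, by 0.28, so that values between 0 and 0.28 turn negative. The 95% interval of a ratio (Clopper-Pearson) and that of a CPM value (Poisson) cover counting error only. The transgene was not analysed here, so the genotype labels were not checked against it.

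Both totals carried the markers of skeletal muscle: the 8 listed genes, among them Acta1, Ckm and Myh4, summed to 105485 CPM in FLExDUX4 and 105927 CPM in WT. Of the markers of a hindlimb muscle such as the quadriceps, Hoxc10 had 0 counts in both totals, which allows up to 3, Pitx1 had 0 and 1, and Tbx4 had 10 in each. Of the forelimb markers, Tbx5 had 14 counts in FLExDUX4 and 34 in WT, Hoxc4 had 35 and 37, and Hoxc5 had 13 and 23.

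The integrated stress response begins with kinases that phosphorylate the translation initiation factor eIF2α. This slows protein synthesis in general and raises the translation of the transcription factor ATF4, which switches on genes for amino acid supply and for stress signaling. The unfolded protein response watches over protein folding in the endoplasmic reticulum (ER) through the sensors PERK, IRE1α and ATF6, and PERK is itself an eIF2α kinase. Much of this regulation lies in phosphorylation, in the choice of the translation start on Atf4 mRNA and in the unconventional splicing of Xbp1 mRNA, none of which counts at the 3′ end measure.

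Promoter sequence gives a feature of the genes that does not rest on the counts. The 10 genes were chosen for their known roles in these responses. Matches in known targets of ATF4 are therefore given as a description and are no independent support. ATF4 and its partners bind the C/EBP-ATF response element (CARE), searched here as TGATGNAA on both strands. Windows from 250 bases before to 50 bases after the start site were found for 8 of the 10 genes (RefSeq, GRCm38.p6), and 3 of these held a match, against 3.97% of all 32851 windows. The 3 windows are shown because they hold the match and Chac1, Asns and Trib3 are known downstream genes of ATF4. They are written in the direction of the gene, with the match in capitals.
Chac1, chr2:119350992-119351291, strand plus: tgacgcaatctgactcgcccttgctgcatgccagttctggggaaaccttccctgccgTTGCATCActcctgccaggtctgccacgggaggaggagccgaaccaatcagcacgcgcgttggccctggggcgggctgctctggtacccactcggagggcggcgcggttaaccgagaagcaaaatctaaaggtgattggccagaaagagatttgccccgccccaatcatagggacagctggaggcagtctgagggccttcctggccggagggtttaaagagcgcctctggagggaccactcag
Asns, chr6:7693160-7693459, strand minus: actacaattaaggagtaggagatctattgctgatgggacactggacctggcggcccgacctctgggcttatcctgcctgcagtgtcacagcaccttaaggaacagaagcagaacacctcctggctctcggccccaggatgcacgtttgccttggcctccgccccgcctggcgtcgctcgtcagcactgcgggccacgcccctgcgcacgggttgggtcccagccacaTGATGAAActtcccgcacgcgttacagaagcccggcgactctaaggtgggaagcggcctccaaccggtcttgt
Trib3, chr2:152344011-152344310, strand minus: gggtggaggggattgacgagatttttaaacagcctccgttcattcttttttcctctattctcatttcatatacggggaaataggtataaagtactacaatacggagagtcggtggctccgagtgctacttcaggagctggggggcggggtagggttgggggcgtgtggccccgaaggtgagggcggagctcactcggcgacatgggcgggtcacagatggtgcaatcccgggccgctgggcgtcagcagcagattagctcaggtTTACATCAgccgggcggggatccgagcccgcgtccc
Counted from the start site, the match began at position -23 in Asns, -193 in Chac1 and 15 in Trib3. The Asns match read TGATGAAA in the direction of the gene. The matches of Chac1, TTGCATCA, and of Trib3, TTACATCA, were on the opposite strand. The other 5 windows, of Atf4, Ddit3, Xbp1, Ern1 and Eif2ak3, held none. No window of the 8 genes held the ER stress response element (ERSE: CCAAT, then 9 free bases, then CCACG; 0.119% of all windows) or the core of the unfolded protein response element (UPRE: TGACGTG; 2.01%), searched on both strands.

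Of the 10 genes, 8 had a ratio above 0 and 2 below it, next to 49.9% of all genes above 0. With spike-in scaling 6 were above 0, next to 25.2% of all genes. The median was 0.48, or 0.42 without Asns, and -0.001 over the 13396 genes compared. A ratio of at least 1.5-fold upward was seen for Asns, Eif2ak3, Chac1 and Trib3, 4 of the 10, against 13.2% of all genes. Asns had to be high in FLExDUX4 to pass the filter. Without it the count was 3 of 9, next to 10.4% of all genes that passed in both totals. Trib3 did not reach 1.5-fold when scaled by gene totals or spike-ins. No gene of the 10 was lower by 1.5-fold, against 13.5% of all genes, and with spike-in scaling 3 were higher (7.82% of all genes) and 1, Atf6, lower (23.7%). The counting interval lay above 0 for 5 of the 10, Asns included (20.5% of all genes), and below 0 for Atf6 alone (20.6% of all genes). The share of genes past 1.5-fold depends on their counts. Among genes with fewer than 100 counts in both totals together, which include Eif2ak3, Asns and Trib3, 28.8% were higher and 31% lower by that much. Among those with at least 100 but under 1000 counts, which include Atf6, Ddit3 and Ern1, it was 8.64% and 8.08%. Among the 2727 genes with 1000 counts or more, which include Atf4, Xbp1, Chac1 and Eif4ebp1, it was 0.843% and 0.403%. In bulk RNA of this kind, more cells of a type and more RNA per cell cannot be told apart.

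**Figure D1:**
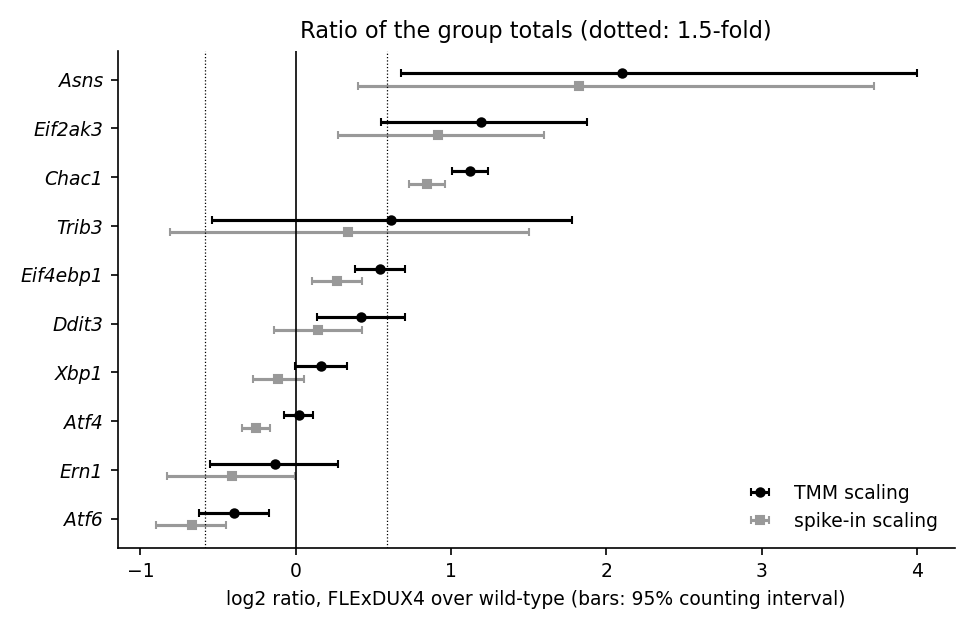
Log2 ratio of the FLExDUX4 over the WT total for the 10 genes (horizontal axis), with 95% counting intervals as bars, under TMM scaling (black circles) and scaling to the spike-in RNAs (grey squares); dotted lines mark 1.5-fold. Chac1 had a narrow interval from 1.004 to 1.24, whereas that of Asns ran from 0.68 to 3.998, and spike-in scaling placed every gene lower by 0.28.

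Chac1 encodes an enzyme that breaks down glutathione and is a target of ATF4, often together with CHOP. It lies on chromosome 2 of GRCm38 (119351229 to 119354381, plus strand, protein-coding). Chac1 had 1521 counts in FLExDUX4 and 1001 in WT, although the WT total was the larger, which is 117 CPM (interval from 111 to 123) and 53.9 CPM (50.6 to 57.4). The 2 intervals did not overlap. The log2 ratio of Chac1 was 1.12 (interval from 1.004 to 1.24), or 2.17-fold higher in FLExDUX4, and 0.84 when scaled to the spike-ins. Among the 2727 genes with 1000 counts or more, Chac1 had the 3rd highest ratio.

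**Figure D2:**
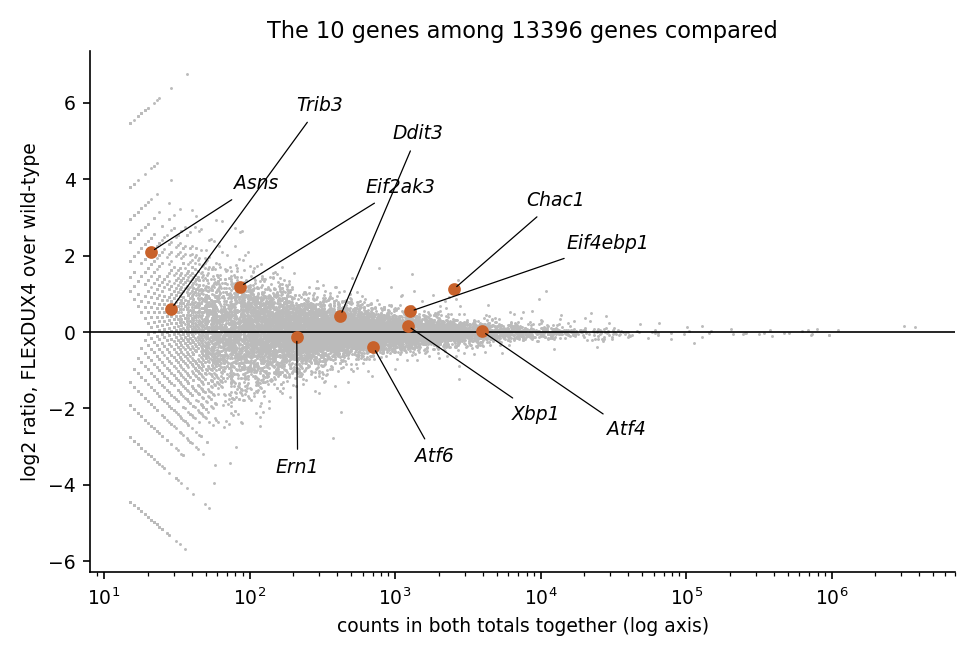
Log2 ratio of FLExDUX4 over WT (vertical axis) against the counts in both totals together (horizontal axis, log scale) for the 13396 genes compared (grey) and the 10 genes (orange, named). The grey cloud narrows as counts rise, and Chac1, with 2522 counts, sits at its upper edge, whereas Asns, with 21 counts, and Trib3, with 29, lie where ratios are widely spread.

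Atf4, which encodes the central transcription factor of the response, is on chromosome 15 (80255184 to 80257541). It had 1645 counts in FLExDUX4 and 2321 in WT, or 127 and 125 CPM, the highest level of the 10 genes in both totals. The log2 ratio of Atf4 was 0.02 (interval from -0.07 to 0.11). With spike-in scaling it was -0.26, which changes its sign. Ddit3 encodes CHOP, a transcription factor linked to cell death under lasting stress, and had 203 counts against 217, or 15.6 and 11.7 CPM. Its log2 ratio was 0.42 (interval from 0.14 to 0.70), and 0.14 with spike-in scaling, with an interval that held 0. The last 68 bases of Ddit3 (chromosome 10, 127290774 to 127296288) lie over the 3′ end of Mars, a methionyl-tRNA synthetase gene on the opposite strand with 255 and 384 counts. Whether the counting used strand is not given in the sources used here, so reads in the overlap may have been assigned to either gene or to none. The annotation also holds another, shorter model named Ddit3 within the first, which was not analysed here.

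Trib3 encodes a pseudokinase that acts in feedback on ATF4 and CHOP. It had 15 counts in FLExDUX4 and 14 in WT, and its log2 ratio of 0.61 had an interval from -0.54 to 1.78. A difference in Trib3 was not detectable at this depth. Asns, on chromosome 6 (7675169 to 7693254, minus strand), encodes asparagine synthetase. Asns had 16 counts against 5, or 1.23 and 0.269 CPM, and a log2 ratio of 2.10 (interval from 0.68 to 3.998). Since Asns passed the filter through its high group alone, that its interval lay above 0 was partly set by the filter and is given as a description.

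Eif4ebp1 encodes 4E-BP1, which holds back translation by binding the cap-binding protein eIF4E. Eif4ebp1 (chromosome 8, 27260329 to 27276674) had 640 counts in FLExDUX4 and 629 in WT, or 49.3 and 33.9 CPM. The log2 ratio of Eif4ebp1 was 0.54 (interval from 0.38 to 0.70), or 1.46-fold, and 0.27 with spike-in scaling. For its paralog Eif4ebp2 the totals were 1596 and 2081, with a ratio of 0.13 (interval from 0.04 to 0.23), or -0.14 with spike-in scaling. The intervals of Eif4ebp1 and Eif4ebp2 did not overlap. Eif4ebp3 had 0 counts in both totals. Eif4e itself had 584 counts against 979, for a ratio of -0.23 (interval from -0.38 to -0.08), so the binding protein and its target went in opposite directions.

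Of the sensors of the unfolded protein response, Eif2ak3 was higher and Atf6 lower in FLExDUX4 beyond counting error, and the interval of Ern1 held 0 under TMM scaling. Eif2ak3 encodes PERK, and this gene (chromosome 6, 70844515 to 70905245) had 53 counts in FLExDUX4 and 33 in WT, or 4.08 CPM (interval from 3.06 to 5.34) and 1.78 CPM (1.22 to 2.497). The log2 ratio of Eif2ak3 was 1.19 (interval from 0.55 to 1.87), and 0.92 with spike-in scaling. Atf6 (chromosome 1, 170704674 to 170867771, minus strand), whose protein is cut in the Golgi to release a transcription factor, had 246 counts against 463, or 19.0 and 24.9 CPM. The log2 ratio of Atf6 was -0.39 (interval from -0.62 to -0.17), and -0.67 with spike-in scaling, which is past 1.5-fold. Ern1 (chromosome 11, 106394650 to 106487852, minus strand) encodes IRE1α, the kinase and RNase that splices Xbp1 mRNA. Ern1 had 82 counts against 129, for a ratio of -0.13 (interval from -0.55 to 0.27). With spike-in scaling the ratio of Ern1 was -0.41, with an interval from -0.83 to -0.003 that lay below 0. Xbp1 (chromosome 11, 5520659 to 5525893), the transcription factor gene downstream of IRE1α, had 535 counts against 683, or 41.2 and 36.8 CPM. The ratio of Xbp1 was 0.16 (interval from -0.002 to 0.33), and -0.11 with spike-in scaling.

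**Figure D3:**
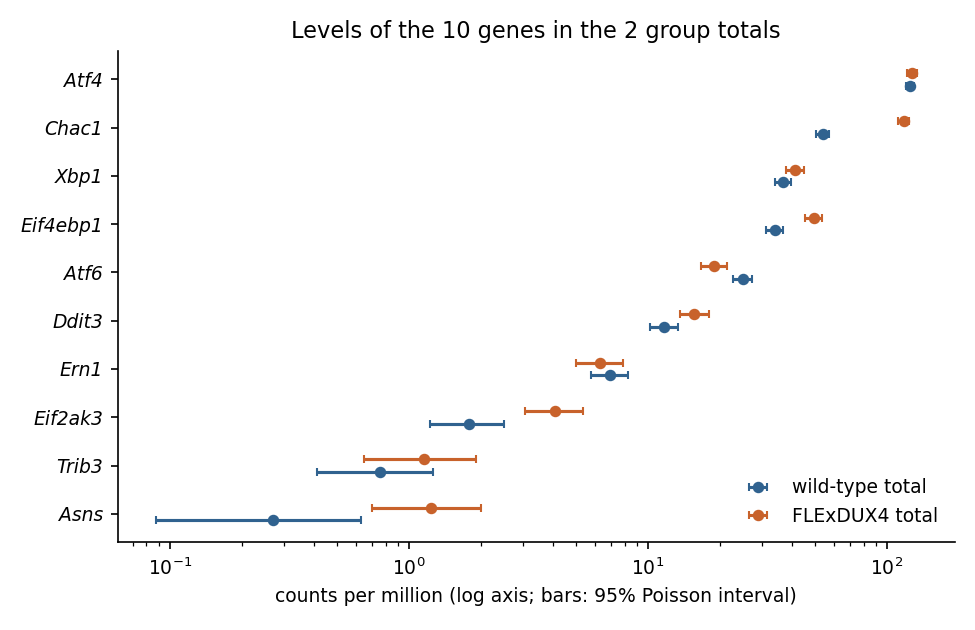
Level of each of the 10 genes in CPM (horizontal axis, log scale) in the WT total (blue) and the FLExDUX4 total (orange), with 95% Poisson intervals as bars; each point is 1 sum over 3 mice. Chac1 stood at 53.9 CPM in WT and at 117 CPM in FLExDUX4, next to Atf4 at 127, while Atf4, Ern1, Trib3 and Xbp1 had overlapping bars.

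In the WT total the genes were ordered by level as Atf4, Chac1, Xbp1, Eif4ebp1, Atf6, Ddit3, Ern1, Eif2ak3, Trib3 and Asns, from 125 to 0.269 CPM. Neighbours in this order overlapped in their counting intervals for Xbp1 and Eif4ebp1, for Eif2ak3 and Trib3 and for Trib3 and Asns. In the FLExDUX4 total Chac1 (117 CPM) overlapped with Atf4 (127 CPM), Eif4ebp1 stood above Xbp1 without overlap (49.3 and 41.2 CPM), and Asns stood above Trib3 with overlap. Atf6 and Ddit3 also overlapped there, as did Ern1 and Eif2ak3.

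The other eIF2α kinase genes had lower ratios than Eif2ak3. Eif2ak1, which encodes the heme-regulated kinase HRI, had 550 counts in FLExDUX4 and 659 in WT, a log2 ratio of 0.26 (interval from 0.09 to 0.42) that was -0.02 with spike-in scaling. Eif2ak4, which encodes the amino acid sensor GCN2, had 62 against 70, for a ratio of 0.34 (interval from -0.18 to 0.86). Eif2ak2, which encodes PKR, the kinase activated by double-stranded RNA, had 8 against 37, for a ratio of -1.62 (interval from -3.01 to -0.57). Eif2ak2 passed the filter through the WT total alone, so its low ratio was partly set by the filter. The interval of Eif2ak3 did not overlap with that of Eif2ak1 and overlapped with that of Eif2ak4. Eif2s1, the gene of eIF2α, had a ratio of -0.18 (interval from -0.39 to 0.04), and Eif2b5, of its exchange factor eIF2B, of 0.38 (interval from 0.21 to 0.55). Of the subunits that direct the phosphatase PP1 to eIF2α, the stress-induced Ppp1r15a (GADD34) had a ratio of -0.10 (interval from -0.38 to 0.18) and the constitutive Ppp1r15b of 0.51 (interval from 0.25 to 0.77). The catalytic subunit gene Ppp1ca had a ratio of 0.32 (interval from 0.22 to 0.41).

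The wider pathway was described with 11 lists that hold 104 symbols in all, of which 102 were matched and 95 were kept by the filter. Of the 95, 13 (13.7%) were at least 1.5-fold higher, among them 4 of the 10 genes above, next to 13.2% of all genes, and 6 (6.32%) at least 1.5-fold lower, next to 13.5%. The share of higher genes was thus near that of all genes. Their median log2 ratio was 0.12, or -0.15 with spike-in scaling, where 8 (8.42%) were higher and 10 (10.5%) lower, next to 7.82% and 23.7% of all genes. Without the 10 genes, 9 of 85 (10.6%) were higher and 6 (7.06%) lower by that much, with a median of 0.10, or -0.18 with spike-in scaling. Of the 95, 5 passed the filter through 1 total alone, Asns, Ero1lb and Sesn2 through FLExDUX4 and Eif2ak2 and Slc7a5 through WT. Among the other 90, 11 (12.2%) were higher and 5 (5.56%) lower, next to 10.4% and 8.89% of all genes that passed in both totals.

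**Figure D4:**
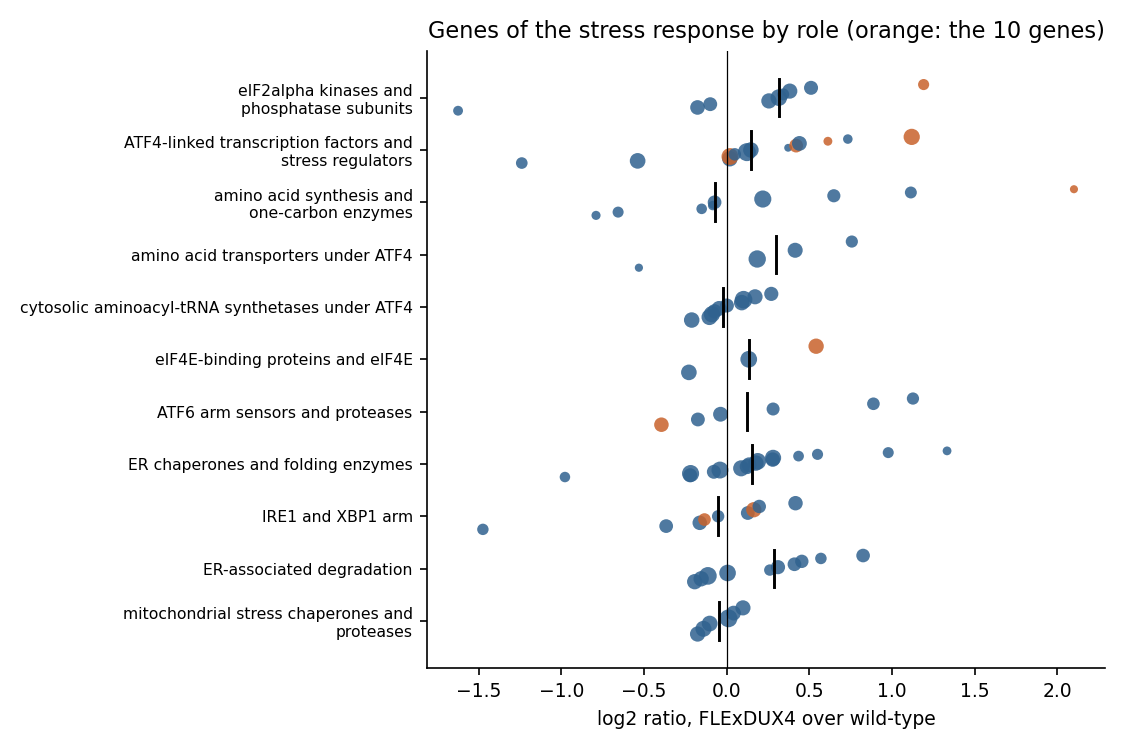
Log2 ratio of FLExDUX4 over WT (horizontal axis) for each gene of the 11 lists that passed the filter, with a row for each list, a black bar at the list's median and dots that are larger for genes with more counts; orange marks the 10 genes, and vertical spread within a row only separates dots. The aminoacyl-tRNA synthetases lie between -0.21 and 0.27. The lists with Chac1, Asns or Eif2ak3 spread over more than 2 log2 units, as does that of the ER chaperones (from -0.98 to 1.33).

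Among 13 transcription factors and regulators linked to ATF4, Chac1, Trib3 and Stc2 were at least 1.5-fold higher and Nupr1 was lower, next to 13.2% and 13.5% of all genes, with a median log2 ratio of 0.15. The intervals of Trib3 and Stc2 (from -0.24 to 1.73) held 0. With spike-in scaling 1 of the 13, Chac1, was higher and 2, Nupr1 and Ddit4, were lower, next to 7.82% and 23.7% of all genes. The median was then -0.13, next to -0.28 over all genes. Atf5, which encodes a relative of ATF4, had 424 counts in FLExDUX4 and 447 in WT and a ratio of 0.44 (interval from 0.25 to 0.64). Nupr1, a stress-induced chromatin protein gene, had 26 against 89, for a ratio of -1.24 (interval from -1.95 to -0.61). Ddit4, whose product inhibits mTORC1, had 521 against 1083, for a ratio of -0.54 (interval from -0.69 to -0.39). Both were on the opposite side of 0 from Chac1. Vldlr, a lipoprotein receptor gene and the most abundant of the list, had 4563 against 5996, for a ratio of 0.12 (interval from 0.07 to 0.18), which was -0.15 with spike-in scaling. Fgf21, a secreted factor of mitochondrial stress in muscle, had 0 counts in both totals, and Gdf15, another, had 0 and 4.

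Of 9 enzymes of amino acid synthesis and one-carbon metabolism, Asns, Mthfd2 and Psph were at least 1.5-fold higher and Cth and Aldh18a1 lower, next to 13.2% and 13.5% of all genes, with a median log2 ratio of -0.07. Asns is counted here although it passed the filter through FLExDUX4 alone. With spike-in scaling Psph did not reach 1.5-fold (0.37), which left 2 higher and 2 lower of 9, next to 7.82% and 23.7% of all genes. The median was then -0.35, next to -0.28 over all genes. Mthfd2, a mitochondrial folate enzyme gene, had 82 counts against 54, for a ratio of 1.11 (interval from 0.61 to 1.64). Psph, of the last step of serine synthesis, had 148 against 135, for a ratio of 0.65 (interval from 0.30 to 0.996). Cth, which encodes a cysteine-forming enzyme, had 25 against 57, for a ratio of -0.66 (interval from -1.41 to 0.03). Gpt2, of alanine synthesis, was the most abundant, with 2312 against 2842, for a ratio of 0.22 (interval from 0.14 to 0.30), which was -0.06 with spike-in scaling. Pycr1, of proline synthesis, had a ratio of -0.15 (interval from -0.94 to 0.59). Of 4 amino acid transporter genes, Slc7a1 had a ratio of 0.76 (interval from 0.29 to 1.24), Slc3a2 of 0.41 (interval from 0.23 to 0.59) and the abundant Slc38a2 of 0.18 (interval from 0.11 to 0.26; -0.09 with spike-in scaling). The other, Slc7a5, had 7 counts against 15 and lay below 0, at -0.53 (interval from -2.12 to 0.80). None of 10 aminoacyl-tRNA synthetase genes was past 1.5-fold in either direction, next to 13.2% of all genes higher and 13.5% lower. All 10 had at least 100 counts in both totals together, where such ratios are rarer. Among genes with at least 100 but under 1000 counts the shares were 8.64% and 8.08%, and above that 0.843% and 0.403%. The median of the 10 synthetases was -0.02. Their ratios ran from -0.21 for Aars (interval from -0.37 to -0.06) to 0.27 for Yars (interval from 0.02 to 0.52), and Eprs, with 3330 against 4437 counts, had 0.10 (interval from 0.04 to 0.17). Sars had -0.10 (interval from -0.24 to 0.03) and Tars 0.17 (interval from -0.005 to 0.35). With spike-in scaling the ratios of all these named synthetases were below 0.

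Among 16 ER chaperones and folding enzymes, 11 had a ratio above 0, or 6 with spike-in scaling, next to 49.9% and 25.2% of all genes. Creld2 and Ero1lb (12.5%) were at least 1.5-fold higher and Sdf2l1 (6.25%) lower, next to 13.2% and 13.5% of all genes, and the median of 0.16 was -0.12 with spike-in scaling. Ero1lb, with 18 counts against 10, passed the filter through the FLExDUX4 total alone. Hspa5, which encodes the chaperone BiP and is a common readout of ER stress, had 1894 counts in FLExDUX4 and 3152 in WT, a log2 ratio of -0.22 (interval from -0.30 to -0.14). Manf, a secreted ER protein gene, had the same ratio of -0.22 (interval from -0.49 to 0.04). Creld2 had 47 against 34, for a ratio of 0.98 (interval from 0.32 to 1.66), Hyou1 had 43 against 42, for a ratio of 0.55 (interval from -0.10 to 1.20), and Sdf2l1 had 16 against 46, for a ratio of -0.98 (interval from -1.93 to -0.16). In the ATF6 list, Atf6b, the paralog of Atf6, had 114 against 88, for a ratio of 0.89 (interval from 0.48 to 1.31). The intervals of Atf6b and Atf6 did not overlap. Creb3l1, which encodes a related membrane-bound factor, had 98 against 64, for a ratio of 1.13 (interval from 0.66 to 1.61), whereas its paralog Creb3l2 had -0.17 (interval from -0.46 to 0.11). The protease genes that cut ATF6 had ratios of -0.04 (Mbtps1, interval from -0.23 to 0.16) and 0.28 (Mbtps2, interval from -0.09 to 0.64).

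In the IRE1 and XBP1 list, Dnajb9, a chaperone gene downstream of XBP1, had 321 counts against 344, for a ratio of 0.42 (interval from 0.19 to 0.64). Sec61a1, of the translocation channel, had 143 against 264, for a ratio of -0.37 (interval from -0.67 to -0.07). Traf2, which encodes an adaptor that binds IRE1α, had 20 against 81, for a ratio of -1.47 (interval from -2.29 to -0.78), and Map3k5, of a kinase downstream of it, had 0.20 (interval from -0.12 to 0.51), or -0.08 with spike-in scaling. The median of 9 genes was -0.05. Of 10 genes of ER-associated degradation, 1 was at least 1.5-fold higher and none lower, next to 13.2% and 13.5% of all genes, with a median of 0.29. With spike-in scaling 0 were higher and 0 lower, next to 7.82% and 23.7% of all genes. The median was then 0.01, next to -0.28 over all genes. Derl2, of the export machinery, had 212 against 171, for a ratio of 0.83 (interval from 0.53 to 1.13), whereas its paralog Derl1 had 470 against 769, for a ratio of -0.19 (interval from -0.36 to -0.03). Edem2 had a ratio of 0.57 (interval from -0.01 to 1.15), Sel1l of -0.15 (interval from -0.32 to 0.01), and Vcp, the most abundant, of -0.11 (interval from -0.18 to -0.05). The 6 mitochondrial chaperones and proteases lay between -0.18 (Lonp1, interval from -0.35 to -0.01) and 0.10 (Oma1, interval from -0.08 to 0.27), and the abundant Hspa9 had 0.01 (interval from -0.05 to 0.07). Hspe1 had -0.14 (interval from -0.27 to -0.01) and Clpp 0.04 (interval from -0.16 to 0.24). With spike-in scaling the ratios of Oma1, Hspa9 and Clpp were also below 0.

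Genes with the CARE letters lay on both sides of 0 in the wider lists. A match was found in the windows of 13 pathway genes that passed the filter, of which 9 had a ratio above 0, with a median log2 ratio of 0.09. With spike-in scaling 3 of the 13, Asns, Chac1 and Trib3, had a ratio above 0, next to 25.2% of all genes, and the median was -0.18, next to -0.28 over all genes. Those named here were chosen after their values were seen. Beside Asns, Chac1 and Trib3 they included Nupr1 (-1.24), Atf3 (0.05, or -0.23 with spike-in scaling), Vldlr (0.12, or -0.15) and Herpud1 (0.01, or -0.27), and the synthetases Aars, Gars, Iars, Tars and Yars, 5 of the 8 with a window. Over all genes compared, 267 had a match, with a median of -0.03. Of these, 15% were at least 1.5-fold higher and 14.2% lower, next to 13.2% and 13.5% of all genes. The ERSE letters were found in 7 of 12 windows of ER chaperones and folding enzymes, among them that of Hspa5.

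Muscle samples also hold other cells. The counts of their markers stand next to 49.9% of all genes with a ratio above 0, or 25.2% with spike-in scaling. Of 6 adipocyte markers, 5 had a ratio above 0, and their sum was 164 CPM in FLExDUX4 and 98.0 CPM in WT, with none at 0 in either total. With spike-in scaling 4 of the 6 were above 0. Of 5 erythroid genes, 5 had a ratio above 0 and 4 with spike-in scaling, with sums of 1279 and 1020 CPM. Of 4 fibroblast genes, 4 were above 0 and 2 with spike-in scaling, with 1075 and 958 CPM. Of 4 endothelial genes, 1 was above 0 and 0 with spike-in scaling, with 148 and 172 CPM. Of 4 leukocyte genes, 2 were above 0 and 1 with spike-in scaling, with 24.2 and 24.9 CPM. The 2 below 0 were at least 1.5-fold lower, next to 13.5% of all genes, with intervals that held 0. Of 3 Schwann cell genes, 2 were above 0 and 1 with spike-in scaling, with 116 and 112 CPM. The part of these cells in the ratios of the 10 genes was not tested.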

How the data were processed

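Expression was measured in muscle RNA of 3 FLExDUX4 and 3 WT mice. The authors trimmed QuantSeq reads with Cutadapt 1.16 and mapped them with STAR 2.5.3a on GRCm38 plus ERCC and SIRV spike-in sequences, and the processing notes also list featureCounts 1.6.2. The values used are the deposited raw counts per gene, which the authors summed over the mice of each genotype. The deposited table also holds 6 columns of single animals whose names match no sample label, and columns of the authors' own comparison (fold change, standard error, test statistic and p-values). Neither was used. The authors tested with DESeq2.

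After low genes were removed with filterByExpr, which left 13396, TMM factors came from edgeR 4.0.16 under R 4.3.3. Spike-ins (220016 and 259913 counts) were left out of the gene totals. Ratios used a pseudocount of 0.5, and intervals used scipy 1.17.1 in Python 3.11.15. The coverage of the ratio intervals was tested on simulated counts that held counting error only, without spread between mice, and no coverage value is given here. The coverage of the Poisson intervals of CPM values was not tested. A single pooled value per genotype allows no edgeR or DESeq2 test. The members and lists were chosen with earlier results of these data known. Named are the 10 genes, the 2 highest and 2 lowest genes of each list with at least 60 counts, the most abundant gene of each list, and all genes of the eIF4E and eIF2α kinase lists. Atf3, Fgf21, Gdf15, Stc2, Aldh18a1, Slc7a5, Sesn2, Ero1lb, Gars, Iars, Mars, Mbtps2 and Herpud1 were named in addition, after their values were seen. Mars1 and Dele1 were matched to no row under these symbols. Coordinates are from GENCODE M21 on GRCm38, printed where the start equals the deposited one. No transcript of another gene shared 75 bases at 95% identity with the last 500 bases of a member's transcripts. Alternatives were other scalings, filters, pseudocount, fold and interval level.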

Additional observations from a re-analysis of the deposited data

How the results depend on the processing

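No paired analysis was possible because the columns used carry no replicate numbers. For the same reason leaving out each mouse in turn was not run. The scalings by RLE, by upper quartile and by gene totals, no filter, a filter of at least 10 counts in each total and a pseudocount of 2 left each count of members and of list genes within 1.5 times its value, and the members' median log2 ratio between 0.41 and 0.48. Asns has no value under the filter of 10 counts, because its WT total held 5. Scaling to the spike-in totals placed every ratio 0.28 lower. The members' median became 0.20 (0.48 under TMM), 1 member was at least 1.5-fold lower (Atf6, 0 under TMM), 3 members had an interval below 0 (Atf4, Atf6 and Ern1; 1 under TMM), next to 47.1% of all genes, and of the 95 list genes 8 were at least 1.5-fold higher (13 under TMM) and 10 lower (6 under TMM), next to 7.82% and 23.7% of all genes. Why the spike-ins took a larger share of the FLExDUX4 counts was not tested. With a difference of 25% in place of 1.5-fold, 6 members were higher and 1 lower, and of the list genes 27 were higher and 10 lower, next to 22.6% and 22.8% of all genes. With 99% intervals the counts of members with an interval above and below 0 stayed within 1.5 times. Asns, Eif2ak3, Chac1, Trib3, Eif4ebp1 and Ddit3 had a ratio above 0 under each of these settings that gave a value. Their TMM ratios were all above 0.28, the largest shift between scalings, so a change of scaling could not turn their sign. The interval of Trib3 held 0. Xbp1 turned negative with spike-in scaling and Atf4 with spike-in scaling and with gene totals (-0.01). Counts limit Asns, Trib3 and Eif2ak3 the most, with 21, 29 and 86 counts in both totals.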
